A study of Mus musculus with 3 samples.

Results

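The keratin gene family was described in single-cell RNA profiles of 3 mouse melanomas. Its members were all features with a mouse symbol made of Krt and a number, with or without a final letter, and with at least 20 unique molecular identifiers (UMIs, tags that let each captured RNA molecule be counted once) over all cells. Of 36530 features, 54 carried such a symbol and 34 reached the minimum. Another 17 keratins held 1 to 19 UMIs and 3 held none, 100 UMIs in all, and Krt8, the usual partner of Krt18, was among them with 8 UMIs. Nearest to the minimum were Krt222 with 22 UMIs inside it and Krt13 with 13 outside it.

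The tumors arose in the skin of C57BL/6 mice that carried, among other alleles, a Cre-activated mutant Braf (Braf LSL.V600E) and Tyr.CreER. In this model 4-OH tamoxifen painted on the skin activates Cre under a melanocyte promoter, so the mutant Braf is driven in melanocytes and not in the keratinocytes that make most keratins. Some mice of the study also carried a Rosa26 LSL.tdTomato reporter. The groups were 1 untreated tumor, 1 tumor that had regressed on the Braf inhibitor vemurafenib and 1 that had progressed on it, and the labels gave no age for any animal. Cells had been sorted before capture, so their shares need not be those of the tumor. With 1 tumor per group there was no replicate check, no test between tumors was made, and all intervals are 95% intervals that cover counting error only.

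Keratins are the intermediate filament proteins of epithelia. An acidic type I chain pairs with a basic type II chain, and the pair in use tells the state of a cell: Krt5 and Krt14 in the basal layer of epidermis, Krt1 and Krt10 in the layers above it, Krt6, Krt16 and Krt17 in hair follicle sheaths and in activated or wounded epidermis. Further sets build the inner root sheath and the hair shaft, and simple epithelia use Krt7, Krt8, Krt18, Krt19 and Krt20. Of the 34 members, 19 were type I and 15 type II. On build GRCm38 all type I genes but Krt18 lay on chromosome 11, from Krt222 (start 99232761) to Krt42 (end 100269951). All type II genes lay on chromosome 15, from Krt80 (start 101348315) to Krt79 (end 101940324) and Krt78 (end 101996624), with Krt18 next to them (end 102032026).

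The 3 libraries held 12670 cells in 25 named clusters and shared no cell identifier. The untreated tumor gave 4095 cells and 22202192 UMIs, the regressed tumor 3726 cells and 12413268 UMIs, and the progressed tumor 4849 cells and 26948940 UMIs. Depth was lowest in the regressed tumor, at 2658 UMIs in the median cell against 4496 and 4566. It also stood apart in haemoglobin RNA outside erythrocytes (1662 counts per 1000000 UMIs, CPM, against 38.1 and 0.816) and in Xist, transcribed from the inactive X (0.403 CPM against 1494 and 1735). The study enrolled animals of both sexes. With 1 tumor per group, these differences between libraries, and any difference in sex, cannot be told apart from the group. Their part in the values below was not tested.

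Promoter sequences are shown for Krt5, Krt10 and the inner root sheath keratins, 120 bases before the RefSeq start, GRCm38.p6, minus strand, printed 5′ to 3′ along the gene. They are a selection, and other keratins of the results are not printed. Among those, Krt14 and Krt77 had windows that hold no TATAAA. Capitals mark TATAAA on the gene strand. Krt5 is the basal type II chain, Krt10 the type I chain of the layers above, and Krt25, Krt27, Krt28, Krt71 and Krt73 are the inner root sheath set. The windows are chr15:101712906-101713025 for Krt5, chr11:99389365-99389484 for Krt10, chr11:99322952-99323071 for Krt25, chr11:99351119-99351238 for Krt27, chr11:99374904-99375023 for Krt28, chr15:101743098-101743217 for Krt71 and chr15:101802361-101802480 for Krt73. The gene span given for Krt10 reaches beyond its window, so a start further upstream is also annotated.
Krt5: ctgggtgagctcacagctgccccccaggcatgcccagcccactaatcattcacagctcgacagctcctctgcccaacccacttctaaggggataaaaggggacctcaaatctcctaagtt
Krt10: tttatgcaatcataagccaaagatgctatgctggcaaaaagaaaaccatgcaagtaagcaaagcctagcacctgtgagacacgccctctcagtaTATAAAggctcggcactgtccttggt
Krt25: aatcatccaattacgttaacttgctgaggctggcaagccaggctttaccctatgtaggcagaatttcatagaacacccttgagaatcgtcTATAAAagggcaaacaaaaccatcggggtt
Krt27: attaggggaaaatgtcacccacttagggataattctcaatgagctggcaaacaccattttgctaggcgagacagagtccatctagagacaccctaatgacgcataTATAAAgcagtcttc
Krt28: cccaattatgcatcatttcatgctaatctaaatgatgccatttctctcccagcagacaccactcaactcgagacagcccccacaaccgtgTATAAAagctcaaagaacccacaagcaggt
Krt71: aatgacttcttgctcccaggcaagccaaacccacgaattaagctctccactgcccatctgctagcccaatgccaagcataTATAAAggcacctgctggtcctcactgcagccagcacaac
Krt73: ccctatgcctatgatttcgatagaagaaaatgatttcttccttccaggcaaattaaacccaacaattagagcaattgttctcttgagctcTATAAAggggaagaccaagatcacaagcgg

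RefSeq gave a window for 22 of the 34 members. The letters TATAAA occurred on either strand in 9 of the 22 windows (40.9%), against 2083 of 32851 windows of all genes (6.34%). All 5 inner root sheath keratins held them, 15 to 40 bases before the start, as did Krt10 (26 bases), Krt12, Krt20 and Krt32. The palindrome GCCNNNGGC, letters bound by AP-2 factors, occurred in 3 of the 22 (13.6%, all windows 7.98%), and TGANTCA, the AP-1 letters, in 0 of the 22 (all windows 3.41%). These are matches of letters in a short window and say nothing of binding.

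The family was concentrated in few genes and few cells. Members held 311530 UMIs, of which Krt14 took 29.8% and the 8 most abundant keratins 93.6%, and 13 members reached 1000 UMIs. The clusters deposited as Undefined1 and Undefined2 held 84.3% of all keratin UMIs in 6.61% of the cells, and the Dividing cluster held another 6.10%. By their highest level in any cluster and tumor, 16 members peaked in Undefined2, 3 in Undefined1 (Krt15, Krt24 and Krt32), 7 in Dividing and 8 in other clusters. The clusters were made from all genes, keratins included, so these positions describe the clusters and are no finding.

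**Figure D1:**
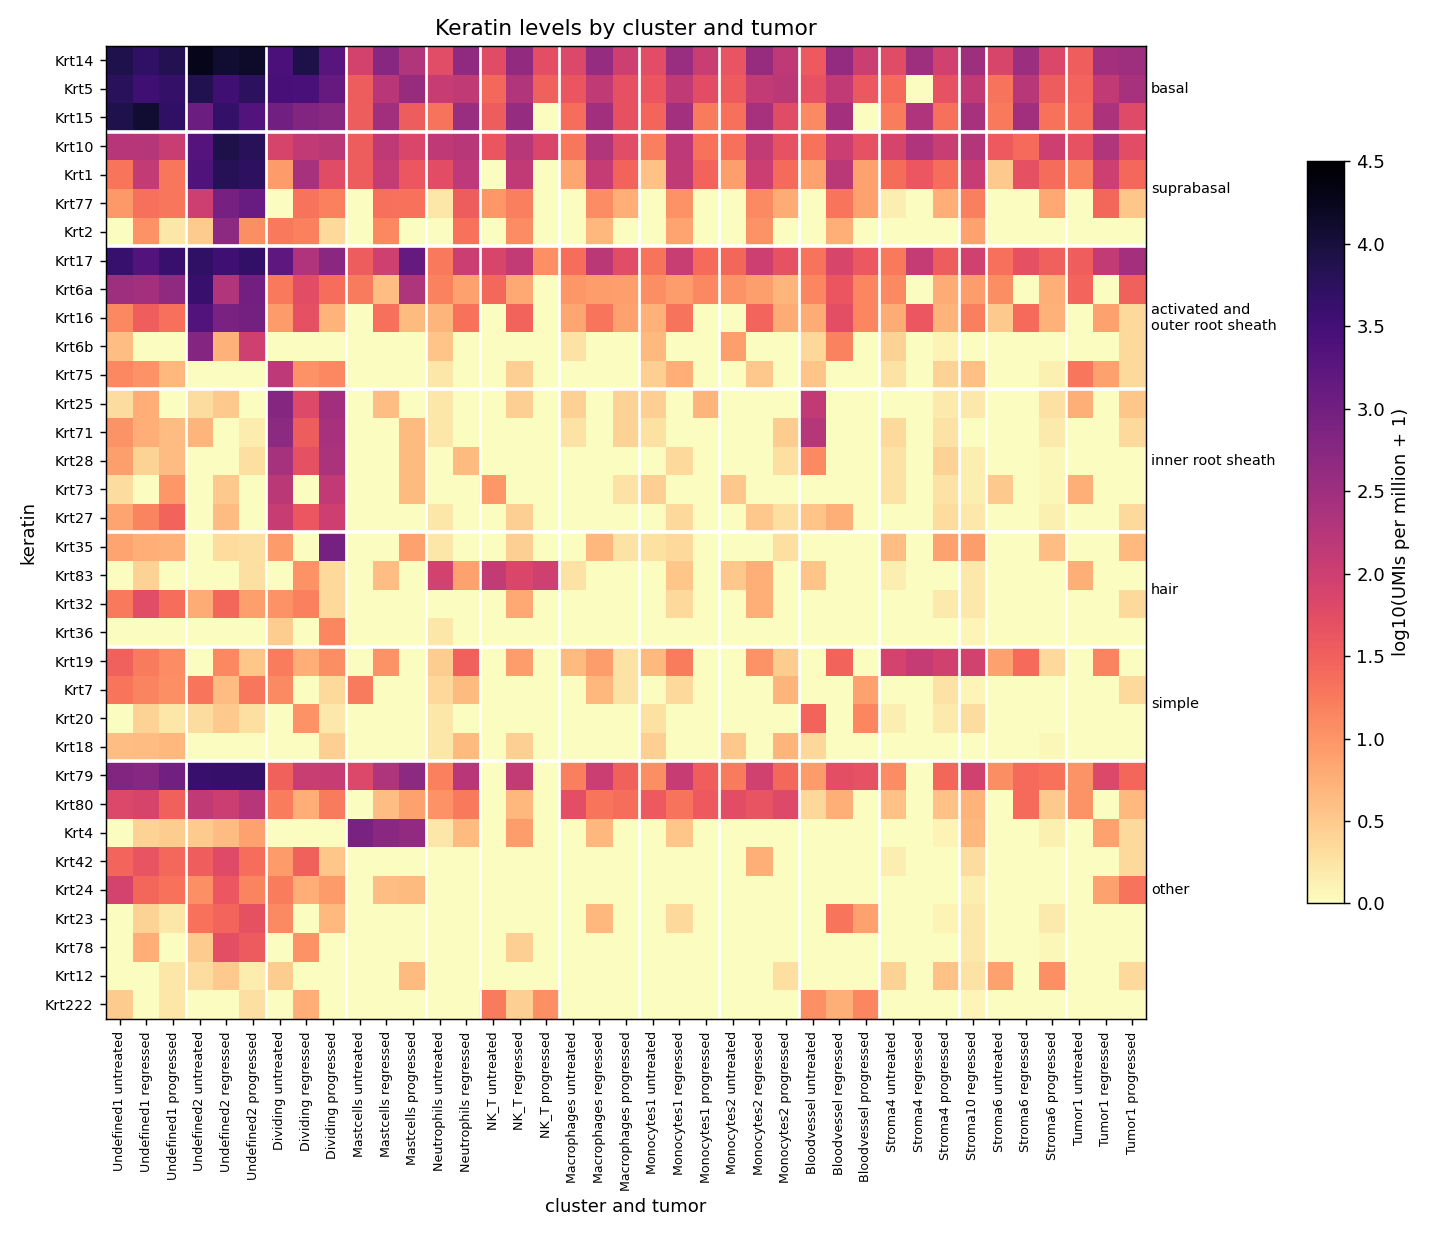
Level of the 34 keratins (rows, grouped by role) in selected clusters of each tumor with at least 10 cells (columns), as log10 of CPM plus 1, darker for higher. Basal, suprabasal and activated keratins are dark in Undefined1 or Undefined2, inner root sheath keratins and Krt35 in Dividing, and Krt4 in mast cells. A paler band of the abundant keratins crosses the immune, stroma and tumor clusters and is mostly darkest in the regressed tumor.

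Undefined1 held 132 untreated, 121 regressed and 194 progressed cells, and Undefined2 held 80, 102 and 209. A list of 8 keratinocyte genes without keratins (Trp63, Perp, Dsp, Sfn, Ly6d, Lgals7, Epcam, Cdh1) had all 8 detected in both. The list was also detected in full in stroma, immune cells and tumor cells. Its summed level in Undefined1 was 17510, 15588 and 18459 CPM and in Undefined2 37673, 36046 and 42952, in the order untreated, regressed, progressed that is kept throughout, while stroma stood at 151, 763 and 289. Keratins were 2.71%, 2.43% and 2.23% of UMIs in Undefined1 and 4.77%, 4.54% and 4.59% in Undefined2. The summed family level thus differed little between the tumors within either cluster, and the differences below lie in which keratins made it up.

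The basal keratins Krt14, Krt5 and Krt15 made up most of the keratin of Undefined1, at 78.9%, 84.9% and 73.4% of its keratin UMIs. Krt14 stood there at 7719, 4953 and 6817 CPM. Krt5 stood at 5783, 3446 and 4545. Both were lowest in the regressed tumor, Krt14 by a log2 ratio of -0.64 (-0.70 to -0.58) and Krt5 by -0.75 (-0.82 to -0.67) against untreated. Krt15, a type I chain known from hair follicle stem cells and the basal layer, went the other way with 7877, 12250 and 5011 CPM. Its log2 ratio was 0.64 (0.59 to 0.68) in the regressed and -0.65 (-0.70 to -0.61) in the progressed tumor against untreated, and the progressed level was 2.44-fold lower than the regressed one. Counts at transcript ends do not scale with transcript length. They can still differ between genes for other reasons, so a ratio of 2 keratins is a description. Only uniquely mapped reads were counted. In the last 400 bases, 6.27% of the 50-base stretches of Krt14 were shared with other genes, and 0% of those of Krt15 and Krt10. Krt15 UMIs per Krt14 UMI were 1.02, 2.47 and 0.735 in Undefined1.

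Single cells of Undefined1 split between the type I basal chains. Among cells with at least 10 keratin UMIs, Krt14 was the highest keratin in 50 of 129, 30 of 113 and 83 of 190. Krt15 was the highest in 47 of 129 (36.4%), 78 of 113 (69.0%, 59.6 to 77.4) and 58 of 190 (30.5%, 24.1 to 37.6). After thinning each cell to 1000 UMIs, the rank correlation of Krt15 with Krt14 over 129, 107 and 190 cells was -0.38, -0.43 and -0.16, values that share a library and rest on few UMIs per cell.

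In Undefined2 Krt14 was again the most abundant keratin, at 18988, 12111 and 13520 CPM. Krt5 stood at 7089, 3471 and 5754. Both were highest in the untreated tumor, and Krt5 was 2.04-fold lower in the regressed one (log2 ratio -1.03, -1.09 to -0.97), while Krt14 was 1.57-fold lower. Krt15 stood at 1110, 4571 and 2100 CPM, highest again in the regressed tumor, with a log2 ratio of 2.04 (1.95 to 2.14) in the regressed and 0.92 (0.82 to 1.02) in the progressed tumor against untreated. In the untreated tumor 31.2% of these Krt15 UMIs came from 1 cell, and without the top cell of each tumor the ratios were 2.50 and 1.35. Krt14 and Krt5, which pair in filaments, varied together over the cells of Undefined2 at rank correlations of 0.62, 0.67 and 0.77 in thinned cells, and of 0.29, 0.06 and 0.24 in Undefined1. The summed basal level in Undefined2 was 27186, 20153 and 21374 CPM.

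**Figure D2:**
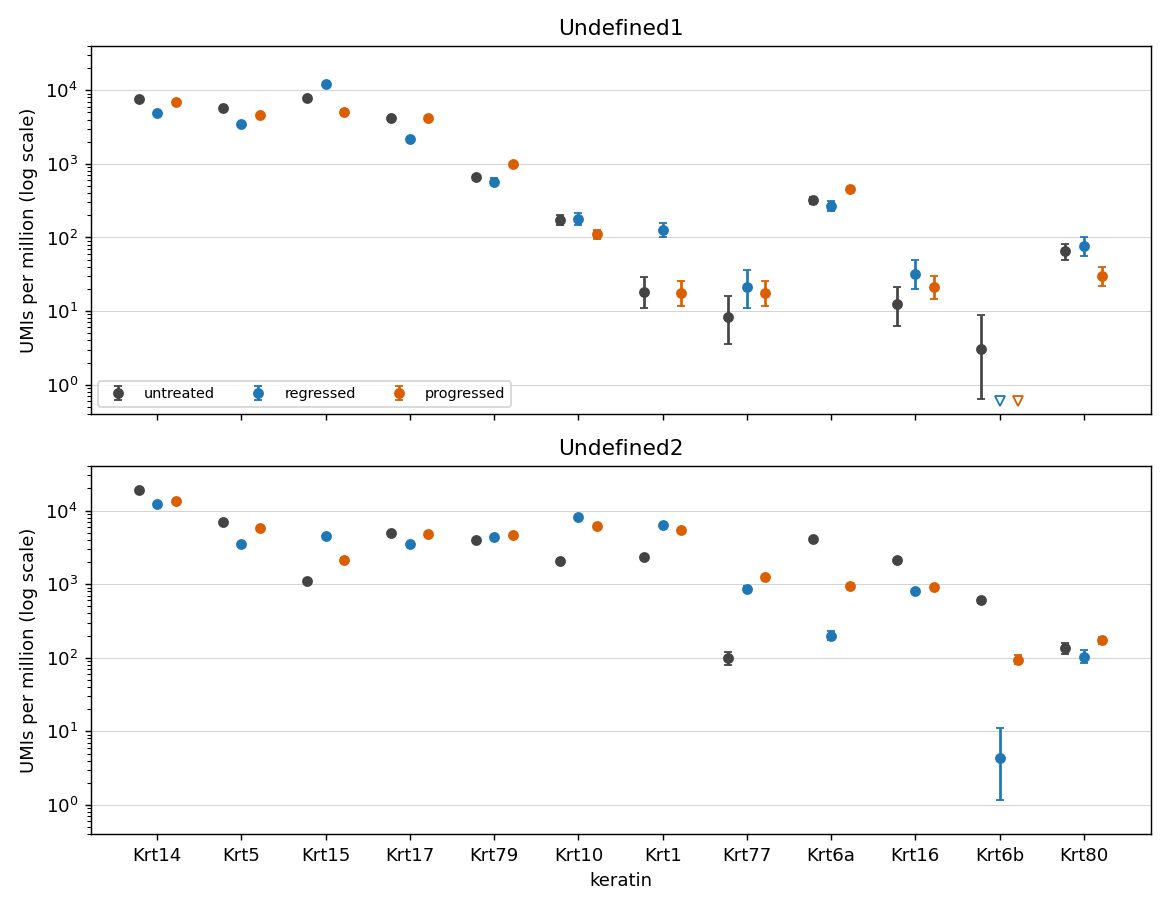
Level of 12 keratins in Undefined1 (top) and Undefined2 (bottom) in the untreated, regressed and progressed tumor, in CPM on a log axis. Points are sums over the cells of 1 tumor, bars are exact Poisson 95% intervals, and an open triangle marks 0 UMIs. Krt10, Krt1 and Krt77 of Undefined2 sit lowest in the untreated tumor and Krt6a and Krt6b sit highest there.

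The suprabasal keratins of Undefined2 were lower in the untreated tumor. Krt10, the type I chain of differentiating epidermis, stood in Undefined2 at 2078, 8226 and 6194 CPM. Its type II partner Krt1 stood at 2306, 6416 and 5398. The untreated tumor was lowest for both. Krt10 was 3.96-fold higher in the regressed (log2 ratio 1.98, 1.91 to 2.06) and 2.98-fold higher in the progressed tumor (1.58, 1.51 to 1.64), and Krt1 was 2.78-fold (1.48, 1.41 to 1.55) and 2.34-fold higher (1.23, 1.16 to 1.29). In the untreated tumor 1 cell held 38.9% of Krt10 and 1 cell 35.3% of Krt1. In the regressed tumor 1 cell held 26.2% of Krt10 and 1 cell 14.7% of Krt1. Without the top cell of each tumor the ratios were wider, 2.33 and 2.18 for Krt10 and 1.88 and 1.73 for Krt1.

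Krt77, a type II chain of suprabasal cells and sweat ducts, stood at 99.4, 869 and 1259 CPM in Undefined2. It was 8.74-fold higher in the regressed and 12.7-fold higher in the progressed tumor than in the untreated one, and 1 cell held 58.7% of the regressed UMIs. Without the top cell the log2 ratios were 2.25 (1.90 to 2.62) and 3.83 (3.51 to 4.17). Krt2, the chain of the uppermost living layer, stood at 1.99, 491 and 10.5 CPM, but 446 of its 456 regressed UMIs lay in 1 cell. The regressed level without that cell was 11.7, so the high sum describes a single cell.

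Summed, the suprabasal keratins of Undefined2 stood at 4486, 16002 and 12862 CPM, which was 9.39%, 35.2% and 28.0% of the keratin UMIs of the cluster. The log2 ratio against untreated was 1.83 (1.79 to 1.88) in the regressed and 1.52 (1.47 to 1.57) in the progressed tumor. In the regressed tumor 1 cell held 3543 of the 14847 suprabasal UMIs, and in the untreated tumor 1 cell held 1634 of 4513. Without the top cell of each tumor the levels were 2944, 13196 and 12217 CPM, and the log2 ratios 2.16 and 2.05. Suprabasal UMIs per basal UMI were 0.165 (0.160 to 0.170), 0.794 (0.777 to 0.811) and 0.602 (0.593 to 0.611). By count of cells the untreated tumor was again lowest, while the progressed share lay above the regressed one. Suprabasal exceeded basal UMIs in 11 of 80 untreated (13.8%, 7.07 to 23.3), 26 of 102 regressed (25.5%, 17.4 to 35.1) and 62 of 208 progressed cells (29.8%, 23.7 to 36.5) with at least 10 keratin UMIs, and these intervals overlap. In Undefined1 no cell did so, 0 of 129, 0 of 113 and 0 of 190, which allows shares of up to 2.82%, 3.21% and 1.92%.

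The cells of Undefined2 were uneven. Krt10 had a median over cells of 168, 429 and 190 CPM and an upper quartile of 807, 8361 and 5138. Most cells thus held little Krt10, and 19 of 80, 34 of 102 and 63 of 209 cells held at least 10 of its UMIs. In thinned cells Krt10 and Krt1 were both detected in 12 of 79, 31 of 93 and 56 of 208 cells, with rank correlations of 0.38, 0.71 and 0.73. Krt10 ran against Krt14, at -0.27, -0.25 and -0.55.

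**Figure D3:**
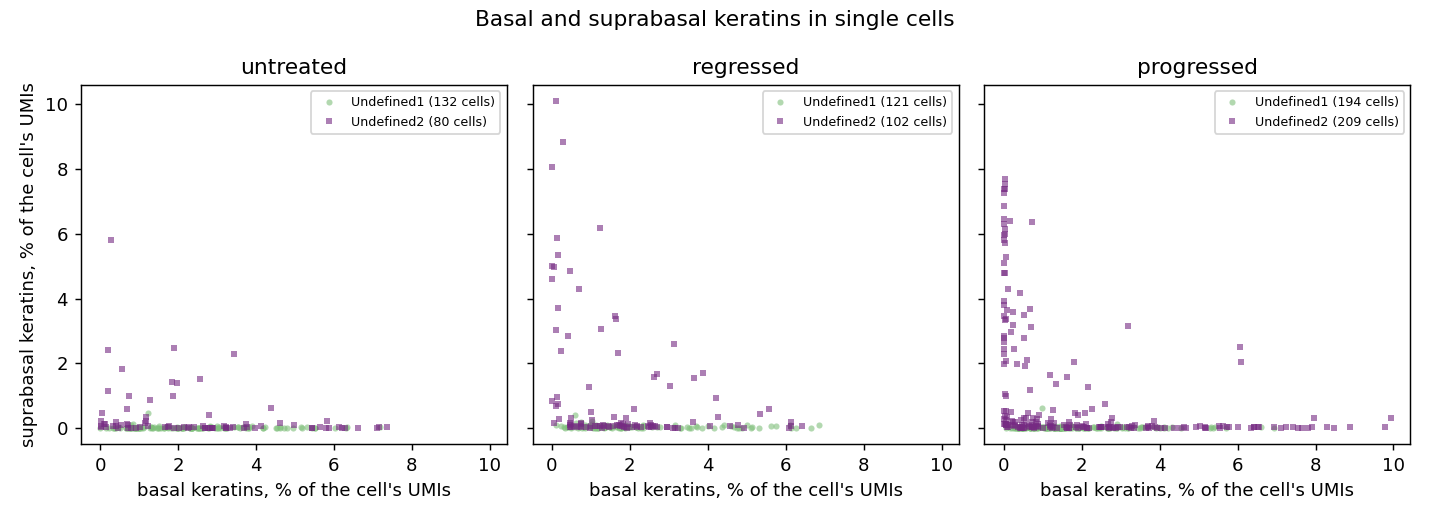
Basal (x axis) and suprabasal keratins (y axis) as percent of the UMIs of each cell, in 1 panel per tumor, with Undefined1 cells as circles and Undefined2 cells as squares. Undefined1 cells lie along the x axis in all 3 panels. Undefined2 cells form an arm along each axis, and the upper arm holds more cells in the regressed and progressed than in the untreated panel.

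The activated and outer root sheath keratins went the other way. Krt6a, a type II chain raised in wounds and worn constitutively by parts of the follicle, stood in Undefined2 at 4092, 199 and 944 CPM. Its close relative Krt6b stood at 607, 4.31 and 94.3. Krt16, a type I partner of both, stood at 2160, 807 and 906. All were highest in the untreated tumor. Krt6a was 20.5-fold lower in the regressed (log2 ratio -4.36, -4.58 to -4.15) and 4.34-fold lower in the progressed tumor (-2.12, -2.19 to -2.04). Krt16 was 2.68-fold lower (-1.42, -1.54 to -1.30) and 2.38-fold lower (-1.25, -1.34 to -1.16), and Krt6b reached -7.14 and -2.69.

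Single cells held much of these sums as well. In the regressed tumor 56.2% of Krt16 lay in 1 cell, and in the progressed tumor 192 of the 197 Krt6b UMIs did. Without the top cell of each tumor, Krt16 reached -2.26 and -1.33, Krt6a -4.85 and -2.30, and Krt6b -7.67 and -7.54, so the direction against untreated did not rest on them. Krt6a was detected in 36 of 80, 18 of 102 and 68 of 209 cells. Krt17, the most abundant of the group, stood at 4971, 3489 and 4793 and differed by 1.42-fold at most from untreated. The summed group stood at 11830, 4500 and 6737 CPM, log2 ratios of -1.39 (-1.45 to -1.34) and -0.81 (-0.85 to -0.78).

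Markers of neutrophils were also highest in the untreated tumor, but they were lowest in the progressed tumor, where these keratins were lowest in the regressed one. The 4-gene list S100a8, S100a9, Cxcr2 and Retnlg summed in Undefined2 to 2462, 571 and 453 CPM. S100a8 stood at 1304, 332 and 248, S100a9 at 968, 216 and 202, Retnlg at 182, 18.3 and 0, and Cxcr2 at 7.95, 5.39 and 3.35. In the immune cells of the same tumors the list stood at 79852, 10552 and 300, and S100a8 and S100a9 are also known from activated keratinocytes. A list of dividing-cell genes (Mki67, Top2a, Birc5) stood at 218, 80.8 and 18.7 in Undefined2. A fibroblast list of 6 genes (Col1a1, Col1a2, Col3a1, Dcn, Lum, Pdgfra) moved with the suprabasal keratins, at 1227, 3469 and 2684 against 46528, 40021 and 46910 in stroma. Their part in the keratin differences was not tested.

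In Undefined1 the suprabasal keratins were low throughout, with a sum of 198, 337 and 146 CPM. Krt10 stood at 171, 179 and 110 there and Krt1 at 18.4, 127 and 17.8, so regressed Krt1 was 6.91-fold above untreated (log2 ratio 2.79, 2.04 to 3.62). In the untreated tumor 1 cell held 15 of the 18 Krt1 UMIs and 1 cell 81 of the 167 Krt10 UMIs. Without the top cell of each tumor the ratio was 5.31 (3.71 to 7.62) for Krt1 and 0.97 (0.55 to 1.40) for Krt10, and the sums without the top cell of the group were 98.4, 338 and 126 CPM. The regressed Krt1 level lay near that of the 18 other clusters of that tumor, which had a median of 120 CPM. Krt17 stood at 4250, 2179 and 4167 and Krt6a at 319, 269 and 455. Krt16 was near the limit, with 12, 20 and 33 UMIs. The activated group summed to 4597, 2490 and 4647 CPM.

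Over the whole table, a feature was called past a 2-fold difference where both tumors together held at least 20 of its UMIs in the cluster. In Undefined2, 8 of 19 keratins were at least 2-fold higher in the regressed tumor than in untreated cells, against 15.5% of 8844 features. They were Krt1, Krt2, Krt10, Krt15, Krt24, Krt32, Krt77 and Krt78. Another 5 of 19 were at least 2-fold lower (Krt5, Krt6a, Krt6b, Krt7 and Krt16), against 5.72% of features. The median log2 ratio was 0.44 over these keratins and 0.15 over all features. The 19 keratins share their cells and are not independent of each other.

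For progressed against untreated, 6 of 19 were higher (Krt1, Krt2, Krt10, Krt23, Krt77 and Krt78, background 7.04%) and 3 of 19 lower (Krt6a, Krt6b and Krt16, background 3.85%). For progressed against regressed, 3 of 19 were higher (Krt6a, Krt6b and Krt7, background 4.12%) and 5 of 19 lower (Krt2, Krt15, Krt24, Krt32 and Krt42, background 10.1%). The 3 comparisons share tumors and are not independent of each other. Of the members that reached the limit, Krt78 stood at 1.99, 51.7 and 34.5 CPM, Krt32 at 4.97, 25.9 and 7.18, and Krt7 at 18.9, 3.23 and 18.2, all on fewer than 75 UMIs per tumor. In the regressed tumor 38 of the 48 Krt78 UMIs lay in 1 cell, and the level without it was 11.7. For progressed against regressed, the log2 ratio without the top cell of each tumor was 0.13 for Krt6b, -1.60 for Krt2, 1.57 for Krt77 and 1.31 for Krt78, so the Krt6b call rested on 1 cell.

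In Undefined1 fewer keratins passed the limit. Against untreated, 4 of 16 were higher in the regressed tumor (Krt1, Krt16, Krt32 and Krt77, background 11.2%) and Krt24 was lower (1 of 16, background 4.13%). In the progressed tumor 2 of 17 were higher (Krt27 and Krt77, background 4.04%) and 3 of 17 lower (Krt19, Krt24 and Krt80, background 3.5%). Krt77 rested on 8, 13 and 28 UMIs. Its log2 ratios against untreated were 1.36 (-0.02 to 2.83) and 1.12 (-0.05 to 2.47), and both intervals include 0. Progressed against regressed, Krt27 was higher (1 of 17, background 5.26%) and Krt1, Krt15, Krt32 and Krt80 were lower (4 of 17, background 11.9%). In the regressed tumor 18 of the 34 Krt32 UMIs lay in 1 cell, and without the top cells Krt32 was inside the limit in both comparisons (0.95 and -0.50). Krt15 was the only one of the abundant basal chains among them.

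**Figure D4:**
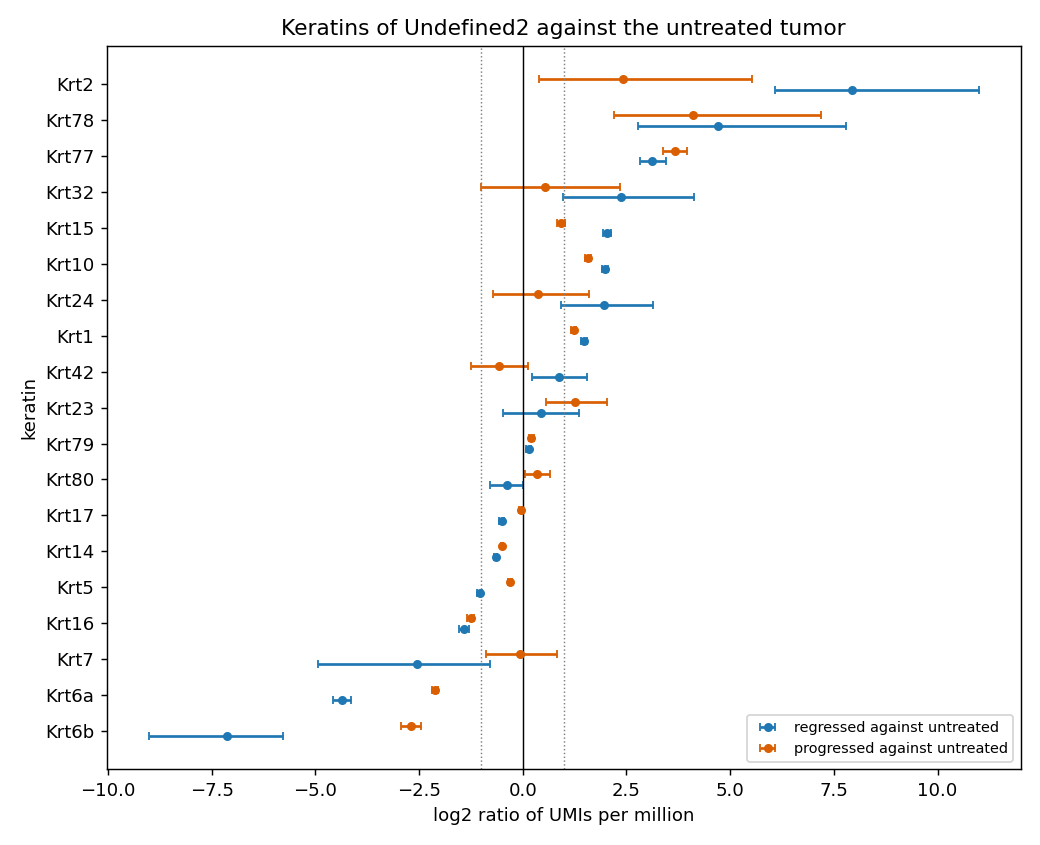
Log2 ratio of CPM in Undefined2 for the keratins with at least 20 UMIs in the 2 tumors compared, regressed and progressed against untreated, with exact 95% counting intervals. Dotted lines mark a 2-fold difference. Krt6b, Krt6a and Krt16 lie left of the lines in both comparisons, and Krt1, Krt10, Krt77, Krt78 and Krt2 lie right of them, where most Krt2 UMIs of the regressed tumor came from 1 cell.

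Krt79, a type II chain known from the follicle infundibulum and sebaceous duct, was the most abundant of the other keratins and differed by less than 2-fold between tumors in both clusters. It stood in Undefined2 at 4014, 4433 and 4634 CPM and in Undefined1 at 658, 571 and 980. In thinned cells of Undefined2 it varied with Krt17, at rank correlations of 0.71, 0.56 and 0.72, and it was the highest keratin in 10 of 80, 14 of 102 and 39 of 208 cells. Krt80, a widely expressed type II chain, stood at 135, 103 and 173 in Undefined2 and at 64.5, 75.8 and 29.9 in Undefined1. Krt24 stood at 78.8, 25.8 and 20.4 in Undefined1 and at 9.94, 38.8 and 12.9 in Undefined2.

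The other genes of the epidermis did not all move as the keratins did. Of 11 cornified envelope genes tested in Undefined2 for regressed against untreated, 2 were at least 2-fold higher (background 15.5%) and 4 lower (background 5.72%). For progressed against untreated 2 were higher (background 7.04%) and 4 lower (background 3.85%). The most abundant, Krtdap, stood at 5889, 7643 and 7311 CPM, Dmkn at 3992, 2563 and 4017, and Calm4 at 2807, 3383 and 3085. None of these 3 differed 2-fold, while Krt10 and Krt1 did. Sprr1a and Sprr1b, small proline-rich envelope precursors known from activated epidermis and named here after their values were seen, were lower by -3.17 and -4.51 on the log2 scale in the regressed tumor. Lor and Cdsn, named in the same way, were higher there, at 6.96, 32.3 and 5.75 CPM and at 5.96, 26.9 and 13.4.

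Of 10 desmosome genes in Undefined2, 1 was higher (background 15.5%) and 1 lower (background 5.72%) in the regressed tumor against untreated. In the progressed tumor 1 was higher (background 7.04%) and none lower (background 3.85%). Counts this small were not tested against these backgrounds. Perp stood at 4354, 3838 and 4316 CPM, Dsp at 952, 1241 and 1254, and Jup at 793, 703 and 896. Of 8 hemidesmosome and basement membrane genes, which anchor the basal layer, 1 was higher and 2 lower in the regressed tumor. In the progressed tumor none was higher and 2 were lower. The same backgrounds apply to this list and the next. Plec stood at 215, 167 and 189, Dst at 153, 373 and 154, and Itga6 at 261, 133 and 152. Of 9 other epidermal genes none passed 2-fold in either direction: Lgals7 stood at 21920, 20796 and 25350, Ly6d at 4527, 5861 and 5863, and Sfn at 5303, 3616 and 5362. Of 5 other intermediate filament genes only Vim reached the minimum, at 79.5, 274 and 207 CPM, higher in both treated tumors. Vim is a fibroblast and immune gene as well, and it moved with the fibroblast list above.

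The keratins of the inner root sheath, which guides the growing hair, peaked in the Dividing cluster of 43 untreated, 75 regressed and 147 progressed cells. Krt25, a type I chain, stood there at 591, 63.2 and 291 CPM. Its type II counterpart Krt71 stood at 489, 34.0 and 253. The regressed values rest on 13 and 7 UMIs. That cluster held a median of 889 UMIs per cell against 11361 and 11402. Krt28 stood at 263, 48.6 and 226, Krt73 at 156, 0 and 129, and Krt27 at 114, 38.9 and 99.6. Of the 81 untreated Krt73 UMIs 46 lay in 1 cell, and the level without it was 69.1. The regressed 0 of Krt73 was measured in 205784 UMIs, which allows up to 17.9 CPM. These are the keratins whose windows all held TATAAA.

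Few cells carried them. At least 10 inner root sheath UMIs were found in 11 of 43, 2 of 75 and 28 of 147 dividing cells, and at least 10 basal keratin UMIs in 26, 3 and 32. Both were found together in 8, 0 and 10 cells. Krt14 stood in Dividing at 2611, 8281 and 1882 CPM, but 1463 of the 1704 regressed UMIs lay in 1 cell, and the level without it was 1497. Krt75, a chain of the companion layer of the follicle, stood at 145, 9.72 and 11.9, and 61 of its 75 untreated UMIs lay in 1 cell.

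Krt35, a type I chain of the hair shaft cortex, stood at 7.73, 0 and 878 CPM in Dividing. The progressed value came from 1482 UMIs in 16 cells, the highest of which held 290. Hair keratins reached 10 UMIs in 0, 0 and 10 dividing cells, and 5 of the 10 also held at least 10 inner root sheath UMIs. The level of Krt35 in the progressed tumor was thus high in a small number of cells, and whether the untreated and regressed tumors held such cells was not detectable among 43 and 75 cells.

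Follicle regulators were found in the same cells. In the progressed tumor the 33 dividing cells with at least 10 inner root sheath or hair UMIs held Msx2, a homeobox factor of the hair matrix, at 450 CPM against 19.5 in the 114 others. Hoxc13, a known activator of hair keratin genes, stood at 177 against 14.6 and Lef1 at 190 against 18.6. Tchh, which encodes trichohyalin, stood at 39.7 against 2.43. In the untreated tumor the 11 such cells held Msx2 at 412 against 61.8 and all 39 UMIs of Krtap8-1, a keratin-associated protein. Fibroblast Col1a1 was lower in these cells than in the others, at 210 against 6463 in the progressed and 82.5 against 2249 in the untreated tumor. In the regressed tumor only 2 cells were of this kind. They held Col1a1 at 432 against 306 in the 73 others, and Msx2, Hoxc13, Tchh and Krtap8-1 were at 0 in both. An exception to the position in Dividing was the untreated Bloodvessel cluster, where 1 cell held all 102 Krt25 and 140 Krt71 UMIs.

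Several keratins peaked outside these clusters. Krt4, a type II chain known from mucosal epithelia, stood in mast cells at 794, 529 and 441 CPM, against 0.225, 3.13 and 0 in the other immune cells. It was detected in 10 of 16, 73 of 106 and 49 of 85 mast cells, and in 1 of 1037, 8 of 851 and 0 of 598 other immune cells, with median depths of 3071, 2422 and 2984 against 3651, 2173 and 3782 UMIs. At 1000 UMIs per cell the shares were 46.7%, 42.7% and 26.5% against 0%, 0.143% and 0%. Krt4 was thus found in mast cells of all 3 tumors. In the untreated tumor 30 of its 48 UMIs lay in 1 cell. Mast cells with Krt4 held 340, 1728 and 351 CPM of other keratins and those without it 360, 1282 and 609, after 2 keratin-rich progressed cells were left out.

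Krt83, a type II hair keratin, was found in neutrophils and in the NK_T cluster. Untreated neutrophils held it at 85.5 CPM (130 UMIs in 49 of 391 cells), and regressed ones at 6.72 (2 UMIs in 216 cells, at a median of 1252 UMIs per cell against 3257). The NK_T cluster held 124, 70.6 and 92.5 CPM, in 10 of 25, 22 of 180 and 4 of 17 cells. Immune cells outside these clusters held 0.699, 3.41 and 0.344. The neutrophils of the untreated tumor and the NK_T cells of all 3 tumors stood above it. Untreated neutrophils with Krt83 held the keratinocyte list at 137 CPM and those without it at 152, once 1 keratin-rich cell was left out. NK_T cells with Krt83 held the list at 388, 841 and 353 and those without it at 120, 1211 and 400, so the untreated carriers were higher and the others lower. In the progressed NK_T cluster 6 of the 9 Krt83 UMIs lay in 1 cell, and the level without it was 31.8. Krt83 lies in the type II cluster at chromosome 15, 101485130 to 101491512.

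Krt19, a type I chain of simple epithelia and follicle stem cells, peaked in stroma. Stroma4 held it at 80.0, 121 and 89.7 CPM, in 75 of 599, 2 of 20 and 110 of 826 cells, and Stroma10, found in the regressed tumor, at 87.7 in 202 of 1537 cells. The other stroma clusters held 1.83, 6.48 and 1.22. At 1000 UMIs per cell, 4.72% of untreated and 5.41% of progressed Stroma4 cells and 7.25% of Stroma10 cells held a UMI, against 0.150%, 0.233% and 0.293% in the other stroma of the same tumors. Krt19 thus stood above the other stroma in Stroma4 and Stroma10. Of the type II simple keratins, with which it could pair, Krt7 held 141 UMIs over all cells and Krt8 held 8. Cells of Stroma4 with Krt19 held 239 and 428 CPM of other keratins in the untreated and progressed tumor and those without it 259 and 376. In Stroma10 the values were 1202 and 1260. The fibroblast list was lower in cells with Krt19, at 23153 against 33790 and 26870 against 34567 in Stroma4 and 23082 against 36303 in Stroma10. The keratinocyte list stood at 236 against 187, 477 against 320 and 802 against 763. The part of these in the Krt19 level was not tested.

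Krt80 stood above stroma in myeloid clusters. It reached 50.4, 18.6 and 22.1 CPM in macrophages, 36.5, 19.4 and 36.2 in Monocytes1 and 53.9, 43.7 and 61.2 in Monocytes2, against 1.78, 4.36 and 1.82 in stroma. Most cells that held it had 1 UMI, with at most 3, 1 and 2 per macrophage. Macrophages with Krt80 held 204, 1004 and 307 CPM of other keratins and those without it 215, 1483 and 392. In Monocytes2 the values were 158, 1175 and 1065 against 207, 1281 and 311, so progressed Monocytes2 with Krt80 were richer in other keratins. The keratinocyte list there stood at 197, 1746 and 1093 against 776, 1140 and 684. The part of these in the Krt80 level was not tested. Krt12, the corneal type I chain, stood at 10.2 in Stroma6 of the progressed tumor (58 UMIs in 51 of 1255 cells) against 1.43 in its other stroma, and at 7.96 in Stroma9 of the regressed tumor (11 UMIs). Its highest single value, 16.5 in progressed Stroma2, rests on 2 UMIs.

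**Figure D5:**
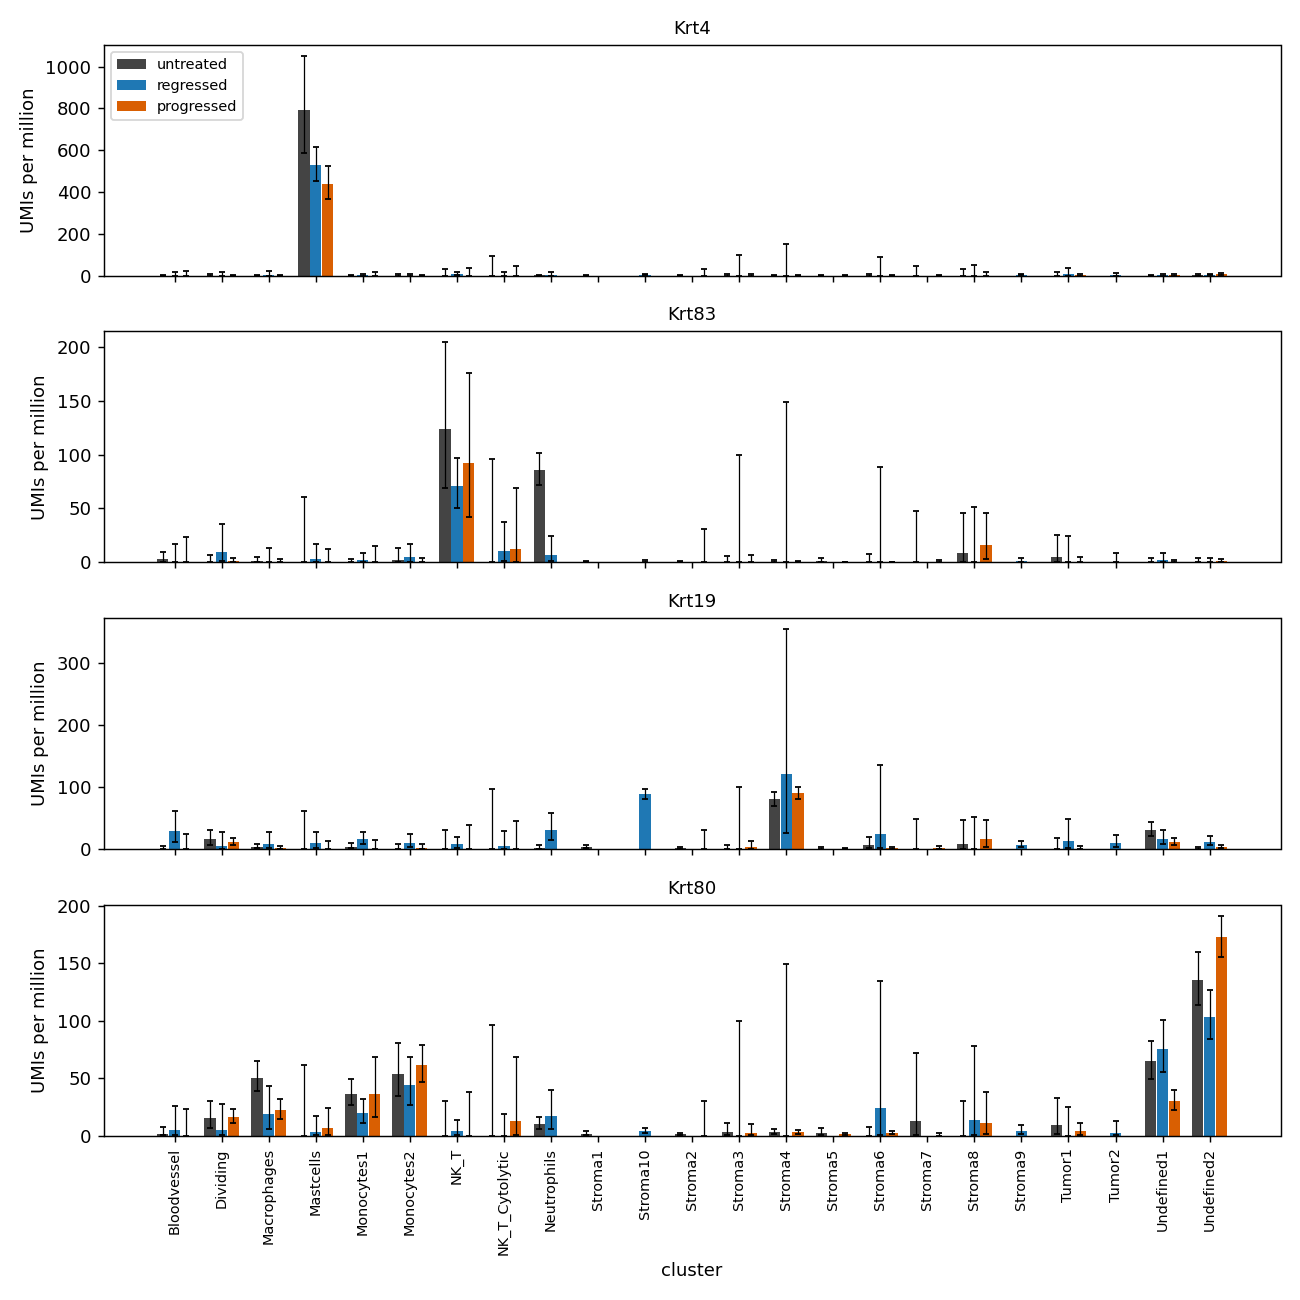
Level of Krt4, Krt83, Krt19 and Krt80 in CPM in each cluster with at least 10 cells, as bars from 0 for the untreated, regressed and progressed tumor with exact Poisson 95% intervals. Krt4 stands out in mast cells, Krt83 in NK_T cells and untreated neutrophils, Krt19 in Stroma4 and Stroma10, and Krt80 in Undefined1, Undefined2 and the myeloid clusters. Wide intervals mark clusters with few UMIs.

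The vessel cluster held 2 low keratins. Krt20, a chain of intestinal epithelium and Merkel cells, stood at 28.2, 0 and 12.7 CPM on 22, 0 and 2 UMIs, in 13 of 74 untreated cells, against 0.284 in untreated stroma. A Merkel cell list (Atoh1, Isl1, Chga) stood at 0 in Undefined1 of all 3 tumors and at 0.994, 0 and 0.479 CPM in Undefined2. Atoh1, the defining factor of Merkel cells, was at 0 in both clusters. The list was not measured in the vessel cluster, so these values do not describe the cells with Krt20. Krt222 stood at 10.3, 4.66 and 12.7 on 8, 1 and 2 UMIs, and its highest value, 16.5 in untreated NK_T cells, rests on 2 UMIs. Krt36, a hair chain, was highest in progressed Stroma8 on 3 UMIs, while progressed Dividing cells held 21 of its UMIs at 12.4 CPM. Krt18 reached at most 6 UMIs in a cluster, and no difference between tumors was detectable for it at this depth.

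The abundant epidermal keratins were also found at a low level in every kind of cell. Keratins were 0.0257%, 0.130% and 0.0369% of UMIs in stroma, 0.0365%, 0.156% and 0.0736% in immune cells and 0.0254%, 0.115% and 0.107% in tumor cells. In the progressed tumor 2 cells held 542 and 108 of the 898 keratin UMIs of tumor cells, and without cells of at least 2% keratin, an exclusion chosen after seeing the data, the tumor cell share was 0.0303%. The regressed tumor was highest in all 3, with and without such cells. A keratin UMI was found in 66.4%, 93.7% and 76.7% of stroma cells and 59.4%, 92.2% and 72.6% of immune cells, at median depths of 4654, 3152 and 4388 and of 3651, 2173 and 3736 UMIs. At 1000 UMIs per cell these shares were 23.2%, 73.3% and 31.1% in stroma and 25.0%, 75.3% and 34.1% in immune cells. In each tumor the thinned stromal share was no higher than that of immune cells, so by this share stroma did not stand apart from them. The source of these UMIs, expression in the cells themselves included, was not tested.

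The makeup of these UMIs was set beside that of Undefined1 and Undefined2 together. In the regressed tumor, among 10 abundant keratins, Krt14 made up 25.9% in stroma, 28.6% in immune cells and 25.3% in tumor cells, against 25.4% in the 2 keratin-rich clusters. Krt15 made up 20.5%, 21.3% and 20.2% against 21.0%, and Krt10 15.5%, 10.7% and 15.4% against 13.8%. Krt14 and Krt15 thus had close shares in these cells, while Krt10 was lower in immune cells (9.80 to 11.7) than in stroma (14.7 to 16.3). In this library a mast cell list (Cpa3, Kit, Cma1, Mcpt4) stood at 332 to 377 CPM in Undefined1, Undefined2, Dividing, stroma and tumor cells. Haemoglobin genes stood at 1582 to 1837 in these and in immune cells.

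Krt10 departed from that in stroma, and not in stroma alone. Of the 10 keratins it made up 30.0% in untreated and 31.4% in progressed stroma, against 3.08% and 10.1% in Undefined1 and Undefined2 of the same tumors. In the untreated tumor it also made up 17.9% (8.91 to 30.4) in tumor cells, 12.5% (7.32 to 19.5) in the vessel cluster and 8.87% (5.64 to 13.1) in macrophages. In the progressed tumor macrophages held 14.4% (11.4 to 17.9) and tumor cells 5.20% (3.82 to 6.90). Of the 898 keratin UMIs of those tumor cells, 650 lay in 2 cells led by Krt14 or Krt17. The Krt10 share of the other tumor cells was not measured, so the 5.20% does not describe them. Krt10 stood in stroma at 69.0, 186 and 104 CPM and in immune cells at 60.9, 153 and 50.2. Krt10 UMIs per Krt14 UMI in stroma were 1.19, 0.596 and 1.36, against 1.07, 0.375 and 0.413 in immune cells of the same tumor. The untreated intervals, 1.08 to 1.31 and 0.896 to 1.27, overlap. The log2 ratio of Krt10 in stroma to immune cells was 0.18 (-0.01 to 0.38), 0.28 (0.12 to 0.44) and 1.06 (0.82 to 1.31). In the untreated immune cells 201 of the 274 Krt10 UMIs lay in 1 cell deposited as a neutrophil. Without cells of at least 10 keratin UMIs the values were 1.25, 0.603 and 1.45 in stroma against 0.290, 0.415 and 0.525, and the log2 ratio was 2.03 (1.68 to 2.39), 0.23 (0.05 to 0.42) and 1.13 (0.88 to 1.40). Relative to Krt14, Krt10 was thus higher in stroma than in immune cells of the regressed and progressed tumors with all cells kept, and in the untreated tumor beyond counting error only once such cells were left out.

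Cells with at least 2% keratin UMIs outside Undefined1, Undefined2 and Dividing numbered 6. They were 1 neutrophil and 1 MitoHigh cell of the untreated tumor and 2 Tumor1 cells and 2 mast cells of the progressed tumor. The untreated neutrophil held 413 keratin UMIs of 18554, led by Krt10, Krt5 and Krt1, and the progressed Tumor1 cell with the most held 542 of 15893, led by Krt14, Krt17 and Krt5. No doublet caller was run, and whether any of them held RNA of a second cell was not tested.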

How the data were processed

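Single-cell RNA libraries (10x Chromium 3′ v2) of 3 tumors were used. The deposited count tables hold UMI counts per gene and cell that the authors made with GSNAP on GRCm38 from uniquely mapped reads overlapping exons in sense orientation, leaving out cells under 300 UMIs (the lowest cell held 326), and the annotation release is not given in the sources used here. The deposited cell table gives counts per cell and the cluster names that the authors assigned after Seurat 2.2.0 clustering. Of 36530 features 31049 matched a RefSeq symbol by gene identifier.

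Levels are summed UMIs of a cluster and tumor (at least 10 cells) per 1000000 UMIs, with exact Poisson 95% intervals. Log2 ratios carry exact conditional binomial and shares exact Clopper-Pearson 95% intervals. A count of 0 was set to 3 over the group in ratios. With 1 tumor per group no test was made. Features with at least 20 UMIs in both tumors together were called past a 2-fold ratio. Thinning drew 1000 UMIs per cell and left out shallower cells (92 untreated, 703 regressed, 55 progressed). Rank correlations over thinned cells are descriptions. Doublets were not called. Interval and ratio code was tested on simulated data. Python 3.11.15, numpy 2.4.6, scipy 1.17.1, pandas 2.3.3, R 4.3.3 and edgeR 4.0.16 (TMM factors only) were used.

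Members and lists were chosen with earlier results of these data known. Named with values were members with at least 1000 UMIs, the 3 most abundant of each keratin group, members highest outside Undefined1 and Undefined2, and the 3 most abundant genes of each other epidermal list. Krt2, Krt6b, Krt23, Krt24, Krt42, Krt78, Krtap8-1, Msx2, Hoxc13, Lef1, Tchh, Col1a1, Sprr1a, Sprr1b, Lor, Cdsn and Vim were named after their values were seen. Alternatives were TMM scaling, deposited totals, totals without haemoglobin, thinning, equal weight per cell, other member minimums and leaving out cells rich in UMIs or keratins. One allele of the mouse model is not reported here.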

Additional observations from a re-analysis of the deposited data

Results flagged for a closer look

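Several keratins differed between tumors in opposite directions in Undefined1 and Undefined2, with both counting intervals off 0. The difference between the clusters was not tested, and each value comes from 1 tumor per group. Against untreated, the progressed tumor had Krt10 at a log2 ratio of -0.63 in Undefined1 and 1.58 in Undefined2, and the suprabasal sum at -0.43 and 1.52. In untreated Undefined1 1 cell held 81 of the 167 Krt10 UMIs and 1 cell 15 of the 18 Krt1 UMIs. Without the top cell of each tumor the Undefined1 ratio was -0.01 (-0.41 to 0.39) for Krt10 and 0.35 (-0.01 to 0.72) for the sum, so neither fall in Undefined1 held without them. In the same comparison Krt6a stood at 0.51 and -2.12 and Krt80 at -1.11 and 0.35. Krt80 also differed in sign for progressed against regressed, at -1.34 and 0.74. For regressed against untreated, Krt16 stood at 1.39 in Undefined1, on 20 and 12 UMIs, and at -1.42 in Undefined2. Krt24 stood at -1.61 and 1.96 in that comparison, and its Undefined2 value changed sign in thinned cells.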

How the results depend on the processing

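Deposited totals and totals without haemoglobin left all 132 values each the same, and TMM scaling 122 of 132. These values were log2 ratios and counts of keratins past the 2-fold limit. The same meant an unchanged direction and side of the limit for a ratio, and a change within a set factor for a count. No paired analysis was possible because each group held 1 tumor, and no replicate could be left out for the same reason. The causes of the changes below were not tested. In Undefined1, regressed against untreated, the keratins at least 2-fold lower numbered 1, but 3 under TMM, 4 in thinned cells, 4 with equal weight per cell and 5 once the 5% of cells richest in UMIs were left out. For progressed against untreated the 2 higher became 4 thinned and 4 with equal weight, and the 3 lower became 1 with equal weight. For progressed against regressed the 1 higher became 3 under TMM, 3 thinned and 3 with equal weight. In Undefined2 the 6 higher for progressed against untreated became 3 thinned, and for progressed against regressed the 3 higher became 5 without the 1% of cells with the most keratin and the 5 lower became 3 thinned and 3 with equal weight. Signs changed in thinned cells for Krt77 (progressed against untreated, Undefined1, -0.56), Krt32 (progressed against regressed, Undefined1, 2.17), Krt24 (regressed against untreated, Undefined2, -0.24), Krt7 (Undefined2, 0.35 regressed against untreated and -0.42 progressed against regressed) and Krt2 (progressed against untreated, Undefined2, -1.98). With equal weight they changed for Krt32 (0.17) and for Krt24 in Undefined2 (-0.11 regressed against untreated, 0.56 progressed against regressed). Krt6b for progressed against regressed in Undefined2 became -0.98 without the 5% and -0.93 without the 1%. Suprabasal UMIs per basal UMI in Undefined2 were 0.140 untreated, 0.603 regressed and 0.520 progressed in thinned cells, 0.136, 0.604 and 0.532 with equal weight, 0.606 and 0.666 in the regressed and progressed tumor without the 5%, and 0.940 in the regressed tumor for Krt1 and Krt10 over Krt5 and Krt14. Shares of cells with a keratin UMI, thinned, were 23.2%, 73.3% and 31.1% in stroma and 25.0%, 75.3% and 34.1% in immune cells. Keratin CPM in stroma became 238, 1212 and 341 without cells of at least 10 keratin UMIs, 273, 1351 and 391 thinned and 248 in the untreated tumor without the 5%. In immune cells it became 260, 1398 and 393, 341 untreated and 583 progressed thinned, 283 and 450 without the 5%, and, by an alternative chosen after seeing the data, 275 and 499.5 without cells of at least 2% keratin. Leaving out repeated features gave 27589 and 22686 in untreated and progressed Undefined1 and 48523, 46093 and 46612 in Undefined2. With no minimum 54 keratins were kept. Leaving out the top cell of each gene, also chosen after seeing the data, left 88 values on their side of the limit, moved 11 past it and 3 back.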
